A study of Homo sapiens with 4 samples.

Results

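A set of 86 genes was far higher in cells carrying a short hairpin RNA (shRNA) against KDM1A than in cells carrying a control shRNA, out of 23228 genes counted. Members were chosen on the read counts themselves, scaled by the total of gene reads of each library (CPM). A gene entered when its mean over the KDM1A shRNA libraries was 2 CPM or more and at least 3 times the control mean, and when both KDM1A shRNA libraries lay above both controls. By that rule 111 genes qualified, and 25 of them were dropped by symbol (for instance collagens, solute carriers, keratins and claudins). Because the same contrast chose the members, their levels and folds are described here and carry no test.

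The cells were MDA-MB-231, a long-established human breast cancer line of the triple-negative type. Cells with high aldehyde dehydrogenase activity, taken as cancer stem cells, had been collected by flow sorting with the ALDEFLUOR assay and grown in MammoCult medium. Both groups carried lentiviral vectors for stable hairpin expression, and 2 libraries per group (a control shRNA or the KDM1A shRNA) were made from total RNA and sequenced from single ends. The labels name no hairpin sequence and describe no rescue of KDM1A. Whether the 2 libraries of each group stem from different cultures is not stated, so spread and p-values may measure only technical variation.

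KDM1A, also called LSD1, is a histone demethylase that removes methyl groups from lysine 4 of histone H3. It works mostly inside the CoREST complex together with histone deacetylases, where it keeps enhancers and promoters of genes of other cell fates repressed. In blood-forming cells it is recruited by GFI1 and GFI1B to genes of the myeloid lineage, and in epithelial cells by factors of the SNAIL family.

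KDM1A itself (GRCh37 chr1:23345936-23410182) had 4660 and 4059 reads under control shRNA and 561 and 649 under KDM1A shRNA. Its level was 170 ± 4.03 CPM (SD, n = 2) in controls and 24.3 ± 1.22 CPM (SD, n = 2) after knockdown, 7.0-fold lower, with a log2 change of -2.81 ± 0.05 (SE) and an edgeR adjusted p of 2.2e-14. Libraries held between 23902900 and 26923678 gene reads, and 0 reads in a library allow up to 3 counts, which is 0.111 to 0.126 CPM. These limits cover counting error only. All 15 genes listed as typical of MDA-MB-231 reached 1 CPM in at least 1 library, and their summed level was 6499 and 6503 CPM in controls and 7608 and 7680 CPM after knockdown. Of these 15 genes edgeR called 6 higher and 9 lower (5 lower without the second KDM1A shRNA library), with a median log2 change of -0.16. CDKN2A, a tumour suppressor gene that this line is known to have lost, had 323 and 329 reads in the control libraries against 13 and 19 after knockdown. What puts those reads in the controls was not tested, nor was its part in the differences below. With library totals taken without the 275 genes that were lower by 16-fold or more, a choice made after seeing the data, 86 genes met the rule, and all 86 were the members. In bulk RNA, fewer cells of a type and less RNA per cell cannot be told apart.

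Most member promoters found were poor in CG dinucleotides, and 4 are printed as examples of CG-poor and CG-rich starts. RefSeq promoters (GRCh38.p14, 250 bases before to 50 after the most upstream start) were found for 65 of the 86 members. Which start these cells use was not tested, so CG content and motifs here and below describe annotated windows. Printed 5′ to 3′ are the 150 bases before the start, with each CG in capitals. CRISP3 and TSPAN8 are shown as members with the largest folds, and WNT9A and SEMA5A as members with CG-rich starts.
CRISP3 (GRCh38.p14 chr6:49744389-49744538, minus strand): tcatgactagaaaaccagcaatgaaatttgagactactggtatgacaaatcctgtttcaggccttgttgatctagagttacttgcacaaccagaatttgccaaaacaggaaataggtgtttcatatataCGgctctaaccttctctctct
TSPAN8 (GRCh38.p14 chr12:71158000-71158149, minus strand): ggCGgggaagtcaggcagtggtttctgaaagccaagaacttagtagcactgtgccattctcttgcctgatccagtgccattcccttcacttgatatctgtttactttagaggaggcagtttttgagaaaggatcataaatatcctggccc
WNT9A (GRCh38.p14 chr1:227947933-227948082, minus strand): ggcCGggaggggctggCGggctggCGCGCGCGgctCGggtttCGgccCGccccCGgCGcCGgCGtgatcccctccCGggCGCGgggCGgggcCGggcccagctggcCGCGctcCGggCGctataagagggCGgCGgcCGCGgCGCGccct
SEMA5A (GRCh38.p14 chr5:9546076-9546225, minus strand): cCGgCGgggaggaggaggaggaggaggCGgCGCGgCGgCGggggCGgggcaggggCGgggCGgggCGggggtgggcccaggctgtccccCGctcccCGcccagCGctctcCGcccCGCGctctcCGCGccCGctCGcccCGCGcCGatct
The stretches of CRISP3 and TSPAN8 hold 1 CG each, that of WNT9A 28 and that of SEMA5A 24. In the full window of 300 bases the ratio of observed to expected CG was 0.118 for CRISP3, 0.0750 for TSPAN8, 1.03 for WNT9A and 0.816 for SEMA5A. Their levels are given with their roles further on.

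The 111 genes that met the rule before symbols were dropped made up 0.478% of all counted genes, and 0.948% of the 11712 genes with a mean of 2 CPM or more after knockdown. The mirror rule for genes lower after knockdown took 410 of 12026 genes, or 3.41%. So a 3-fold gain was rarer than a 3-fold loss in these libraries. Non-overlap alone was common: both KDM1A shRNA libraries lay above both controls for 43.2% of genes at 2 CPM or more. All 86 members passed the low-count filter of the edgeR fit and all 86 were called higher, where 27.3% of 14012 genes tested were called higher and 28.8% lower. The rule used that contrast, so the member count supports nothing further.

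Summed over the members, the level was 324 and 323 CPM under control shRNA and 1303 and 1286 CPM after knockdown, or 0.0324% and 0.0323% of gene reads against 0.130% and 0.129%. The median member went from 1.35 CPM to 6.27 CPM. The median ratio of the 2 group means was 4.14, with a lowest of 3.02 and a highest of 185, beside 1.01 over the 12230 genes at 2 CPM or more in either group. The highest, that of CRISP3, rests on 1 control read: it was 92.5 without the second control library, and without the first no ratio could be formed. Ratios of 3 to under 4 were found for 39 members, of 4 to under 6 for 23, of 6 to under 10 for 18 and of 10 or more for 6. The set thus consists mostly of moderate gains from a low start. In both controls 35 members were under 1 CPM, and only 8 had a control mean of 10 CPM or more. After knockdown 33 members were at 10 CPM or more, 19 between 5 and 10 CPM and 34 between 2 and 5 CPM.

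The knockdown libraries resembled each other closely over the members. The median ratio of the higher to the lower KDM1A shRNA library was 1.07, and the largest was 1.53, for RAB17. In 49 members the first of these libraries was higher and in 37 the second. The narrowest separation belonged to SPOCK3, whose lower KDM1A shRNA library was 2.46 times its higher control. In 69 members that separation was 3-fold or more. Just inside the fold limit lay AFAP1L2, SPOCK3 and ACOX2, with ratios of 3.02, 3.03 and 3.03, and just outside lay TLR6, HCAR1 and TLR3, at 2.995, 2.98 and 2.94. Just inside the level limit lay VILL, ARHGAP25 and CCDC102B at 2.04, 2.08 and 2.09 CPM after knockdown, and just outside lay ST6GALNAC1, CLEC3B and FLJ44054 at 1.94, 1.93 and 1.90 CPM. FLJ44054 had a ratio of 24.3, so the level limit kept out a gene with a larger fold than most members.

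**Figure D1:**
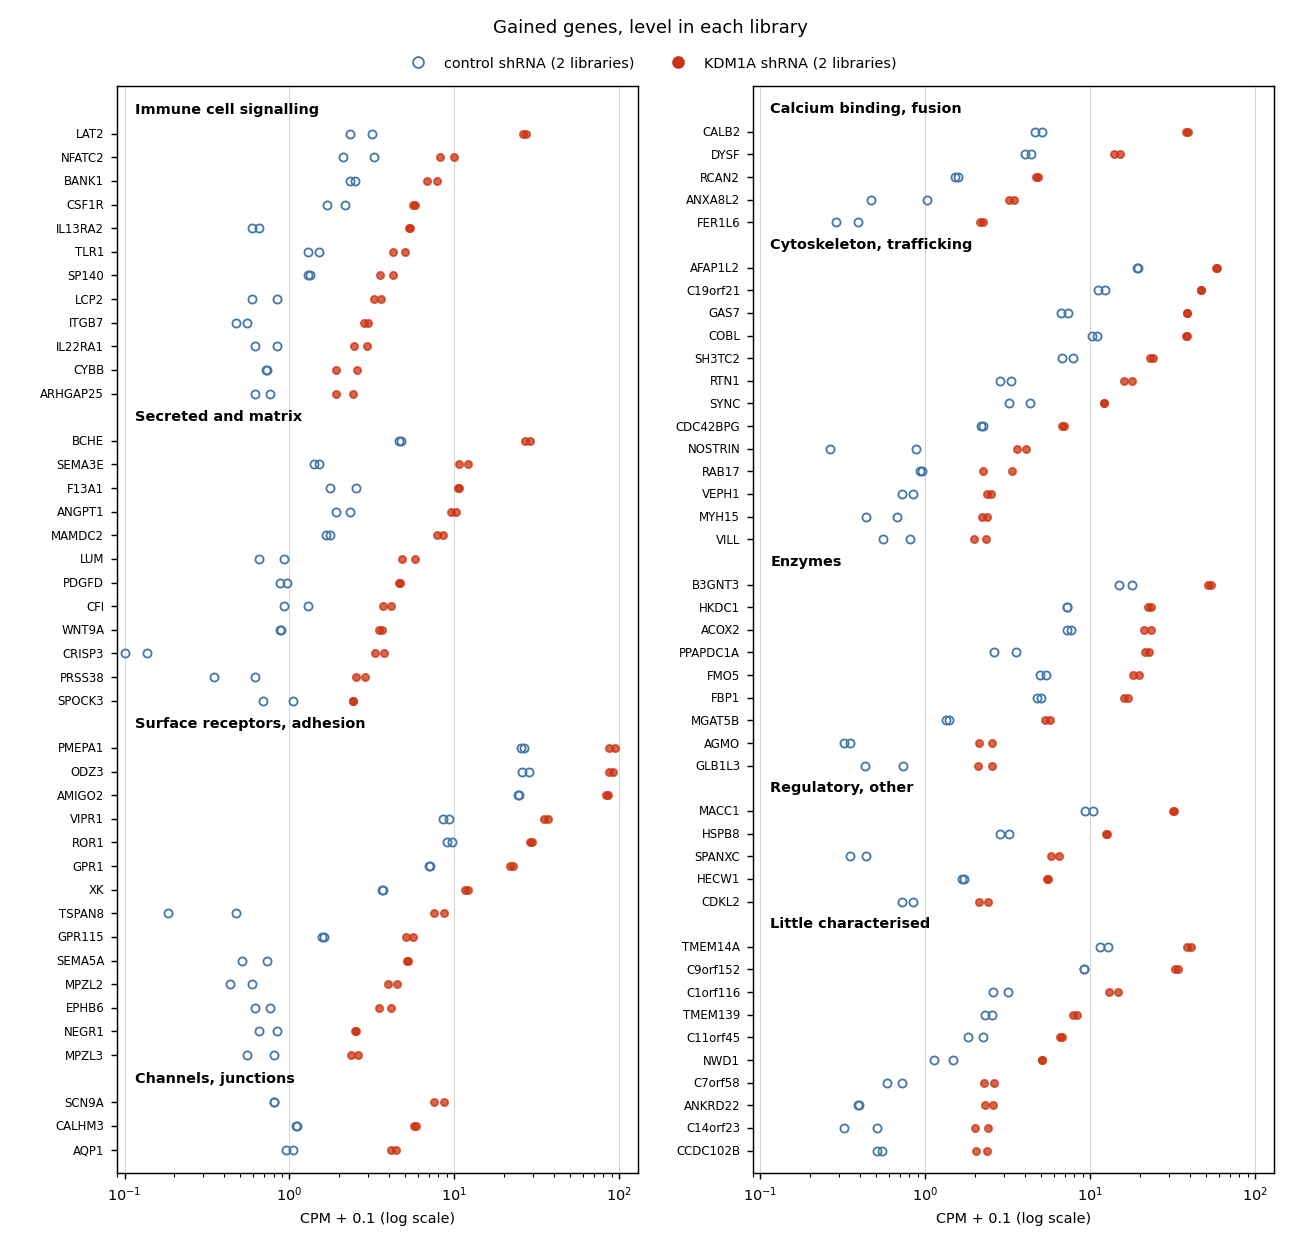
Level of the members reported here in each library, by role, as CPM + 0.1 on a log axis. Open circles are the 2 control shRNA libraries and filled circles the 2 KDM1A shRNA libraries, and for each member shown the filled circles lie to the right of the open ones, as the rule requires.

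A few genes carried much of the gain. The summed difference between the group means was 971 CPM, and the 10 members with the largest differences held 424 CPM of it, or 43.7%. The largest were PMEPA1 with 64.2 CPM, ODZ3 with 61.7 CPM and AMIGO2 with 59.9 CPM. AFAP1L2, B3GNT3, C19orf21, CALB2, GAS7 and COBL were among those that followed, with 39.0 to 27.5 CPM. Scaled to exon length, the order after knockdown was led by other genes. TMEM14A, a small membrane protein, was at 39.9 CPM per kilobase of exon, CALB2 at 22.5 and AMIGO2 at 21.3, beside a median of 1.52 over the members.

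**Figure D2:**
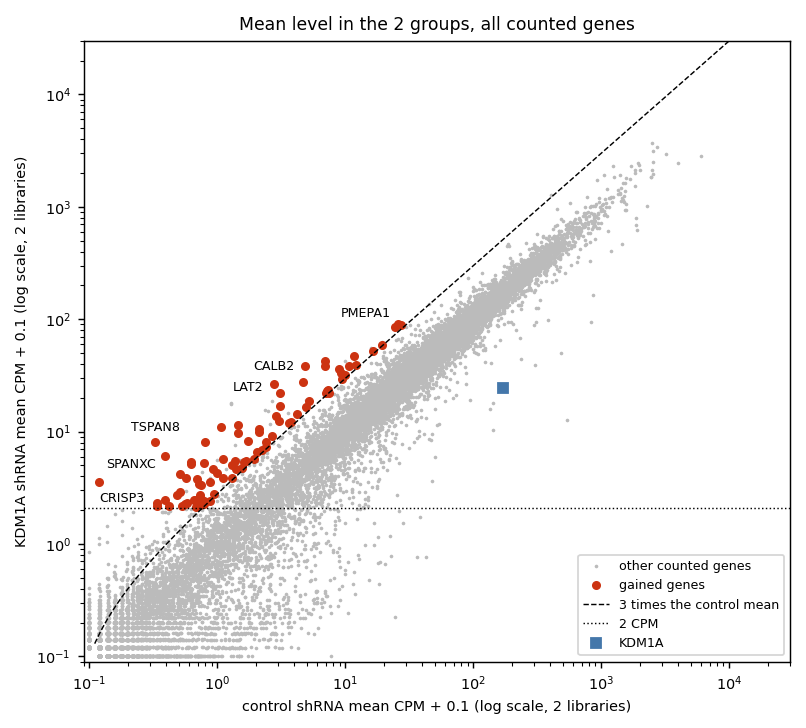
Mean level of every counted gene in the KDM1A shRNA libraries (vertical axis) against the control libraries (horizontal axis), as CPM + 0.1 on log axes. Members (filled circles) lie above the dashed line of 3 times the control mean and the dotted line of 2 CPM, and KDM1A (square) lies far below the diagonal run of the other genes.

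Among surface receptors and adhesion proteins (15 members), the most abundant were PMEPA1, ODZ3 and AMIGO2. PMEPA1 (chr20:56223448-56286592), a membrane protein induced by TGF-beta that binds SMAD proteins and dampens the pathway, was at 26.4 and 25.2 CPM in controls and at 93.8 and 86.3 CPM after knockdown, a ratio of 3.49. ODZ3, a teneurin that guides neuronal contacts, went from 28.2 and 25.5 CPM to 91.0 and 86.2 CPM, a ratio of 3.30. AMIGO2 (chr12:47469490-47473742), an adhesion protein with leucine-rich and immunoglobulin domains, stood at 24.6 and 24.2 CPM in controls and 83.1 and 85.5 CPM after knockdown, a ratio of 3.46. Each of them was already well expressed in the controls, and the 2 libraries of a group lay close together.

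The largest folds of this role belonged to genes near the detection limit in controls. TSPAN8 (chr12:71518865-71835678), a tetraspanin of digestive epithelia and several carcinomas, had 10 and 2 control reads against 204 and 192 after knockdown, which is 0.371 and 0.0825 CPM against 8.53 and 7.45 CPM. Its ratio of means was 35.2, and 96.9 without the first control library, so the size of the fold rests on a handful of control reads. The neuronal guidance protein SEMA5A was at 0.631 and 0.412 CPM in controls and 5.06 and 5.12 CPM after knockdown, a ratio of 9.76.

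The peptide hormone receptor VIPR1 was at 9.17 and 8.37 CPM in controls and 34.9 and 36.6 CPM after knockdown, a ratio of 4.08. ROR1, a kinase-like receptor for WNT5A, was at 8.88 and 9.61 CPM against 29.4 and 28.7 CPM, a ratio of 3.14. XK, the membrane protein that carries the Kx blood group antigen, was at 3.53 and 3.59 CPM against 12.05 and 11.6 CPM, a ratio of 3.32. Further receptors and adhesion proteins (GPR1, GPR115, MPZL2, MPZL3, EPHB6 and NEGR1) had ratios between 3.18 and 9.98. MPZL2 and MPZL3, epithelial adhesion proteins related to myelin protein zero, were under 1 CPM in both controls.

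Secreted and matrix proteins (12 members) had the highest median ratio of the larger roles, 5.33. BCHE (chr3:165490692-165555250), the secreted butyrylcholinesterase, was their most abundant gene, at 4.64 and 4.49 CPM in controls and 28.8 and 26.6 CPM after knockdown, a ratio of 6.06. SEMA3E, a semaphorin that signals through plexin D1, was at 1.30 and 1.40 CPM against 10.5 and 12.03 CPM, a ratio of 8.36. F13A1, the catalytic subunit of clotting factor XIII, was at 2.41 and 1.65 CPM against 10.5 and 10.5 CPM, a ratio of 5.16. ANGPT1, a ligand of the endothelial TIE2 receptor, was at 1.82 and 2.23 CPM against 9.37 and 10.1 CPM, a ratio of 4.82.

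CRISP3 (chr6:49695089-49712150), a cysteine-rich protein of saliva, neutrophil granules and the male reproductive tract, came closest to an on-off pattern. The control libraries held 1 and 0 of its reads, and the KDM1A shRNA libraries 77 and 94. Pooled over libraries and scaled to their totals, the ratio was 176 with an exact 95% interval of 31.2 to 7000, which covers counting error only. LUM, the matrix proteoglycan lumican, was at 0.557 and 0.825 CPM against 5.65 and 4.70 CPM, a ratio of 7.49. Other ligands of the role were PDGFD (platelet-derived growth factor D) with a ratio of 5.51 and WNT9A with 4.43, both under 1 CPM in each control.

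Channels and junctions were few (4 members) but had the highest median ratio of any role, 6.39. SCN9A, the sodium channel of pain-sensing neurons, was at 0.706 and 0.701 CPM against 8.49 and 7.41 CPM, a ratio of 11.3. CALHM3, a channel subunit of taste cells, was at 1.00 and 0.990 CPM against 5.77 and 5.55 CPM, a ratio of 5.68. The water channel AQP1 had a ratio of 4.63.

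Calcium-binding and membrane fusion proteins (5 members) were led by CALB2 (chr16:71392616-71424339), which encodes the EF-hand protein calretinin of neurons and mesothelium. It was at 4.49 and 5.03 CPM in controls and 37.8 and 38.9 CPM after knockdown, a ratio of 8.05. DYSF, the muscle membrane repair protein dysferlin, was at 3.90 and 4.29 CPM against 13.8 and 14.9 CPM, a ratio of 3.51. FER1L6, another ferlin, was at 0.186 and 0.289 CPM against 2.05 and 2.13 CPM, a ratio of 8.82. RCAN2, an inhibitor of the phosphatase calcineurin, had a ratio of 3.22. ANXA8L2 is one of several near-identical annexin A8 genes, so its ratio of 4.96 (8.69 without the first control library) is uncertain.

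Cytoskeletal and trafficking proteins (13 members) had a median of 12.02 CPM after knockdown. AFAP1L2, an actin-associated adaptor of SRC signalling, was at 19.5 and 19.1 CPM in controls and 57.9 and 58.6 CPM after knockdown, a ratio of 3.02. C19orf21, now named MISP and known for positioning the mitotic spindle, was at 10.99 and 12.2 CPM against 46.6 and 47.1 CPM, a ratio of 4.05. GAS7, a membrane-bending protein first seen in growth-arrested cells, was at 7.21 and 6.52 CPM against 38.4 and 38.7 CPM, a ratio of 5.62. COBL, which nucleates actin filaments, was at 10.96 and 10.2 CPM against 38.5 and 37.7 CPM, a ratio of 3.61. RTN1, a reticulon of the neuronal endoplasmic reticulum, had a ratio of 5.64. The ratio of NOSTRIN, an adaptor that binds endothelial nitric oxide synthase, was 7.90, and 22.6 without the first control library.

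Metabolic and glycan enzymes (9 members) had the highest median level of any role after knockdown, 18.7 CPM. They included B3GNT3 (chr19:17905637-17924385), which extends core 1 O-glycans and helps build L-selectin ligands. It was at 14.9 and 17.9 CPM in controls and 51.6 and 53.5 CPM after knockdown, a ratio of 3.21. PPAPDC1A, a lipid phosphatase now named PLPP4, was at 3.45 and 2.52 CPM against 22.8 and 21.5 CPM, a ratio of 7.41. HKDC1, a hexokinase, and ACOX2, a peroxisomal oxidase of branched-chain fatty acids and bile acid precursors, had ratios of 3.19 and 3.03. FBP1, the gluconeogenic fructose bisphosphatase, was at 4.68 and 4.95 CPM against 16.02 and 16.9 CPM, a ratio of 3.42. AGMO, which cleaves ether lipids, had the largest ratio of these enzymes, 9.47, from 0.223 and 0.247 CPM.

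Among regulatory and other genes (5 members), MACC1, a regulator of the MET receptor gene in colon cancer, was at 9.21 and 10.4 CPM in controls and 32.3 and 31.7 CPM after knockdown, a ratio of 3.27. HSPB8, a small heat shock protein, was at 3.12 and 2.72 CPM against 12.4 and 12.5 CPM, a ratio of 4.26. SPANXC, a sperm protein and cancer-testis antigen on the X chromosome, had 9 and 6 control reads and 135 and 165 after knockdown, a ratio of 20.7. SPANX genes are near-identical copies, so which of them gave those reads is uncertain. The 10 members with little known function included TMEM14A, C9orf152 and C1orf116, with ratios of 3.28, 3.66 and 4.98.

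Genes with roles in immune signalling formed 13 members, with a median ratio of 3.53. LAT2 (chr7:73613982-73644164), a membrane adaptor of B cells and mast cells, was at 3.08 and 2.23 CPM against 26.1 and 27.1 CPM, a ratio of 10.01. NFATC2, a transcription factor activated by calcineurin, was at 3.16 and 2.02 CPM against 9.83 and 8.07 CPM, a ratio of 3.46. In each of these genes the groups lay apart, as the rule requires.

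CSF1R (chr5:149432854-149492935), the receptor through which CSF1 sustains macrophages, was at 1.597 and 2.06 CPM in controls and 5.48 and 5.63 CPM after knockdown, a ratio of 3.04. LCP2, the adaptor SLP-76 of T cell receptor signalling, was at 0.743 and 0.495 CPM against 3.47 and 3.14 CPM, a ratio of 5.35. IL13RA2, a decoy receptor for interleukin-13, was at 0.557 and 0.495 CPM against 5.23 and 5.28 CPM, a ratio of 9.99. Further members of this role were BANK1, TLR1, SP140, ITGB7, IL22RA1, CYBB and ARHGAP25, at 2.08 to 7.25 CPM after knockdown.

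Markers of whole leukocytes mostly did not show such a gain, which the rule required of the members. Of 16 leukocyte markers, CSF1R was a member and 12 were under 1 CPM in every library. PTPRC, which encodes the pan-leukocyte antigen CD45, had 2 and 2 control reads and 4 and 3 after knockdown, and CD2, MS4A1 and TYROBP had 0 reads in every library. CD3D had 2 and 0 reads against 6 and 14. The summed level of the 16 markers was 465 and 487 CPM in controls and 462 and 463 CPM after knockdown, nearly all of it from LAPTM5 and CD68, lysosomal proteins. By edgeR, CD68 fell from 173 and 176 CPM to 124 and 122 CPM (log2 -0.51), CD14 fell (log2 -0.89), and LAPTM5 rose slightly (log2 0.16), a call that was lost without the second KDM1A shRNA library (edgeR adjusted p 0.063).

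**Figure D3:**
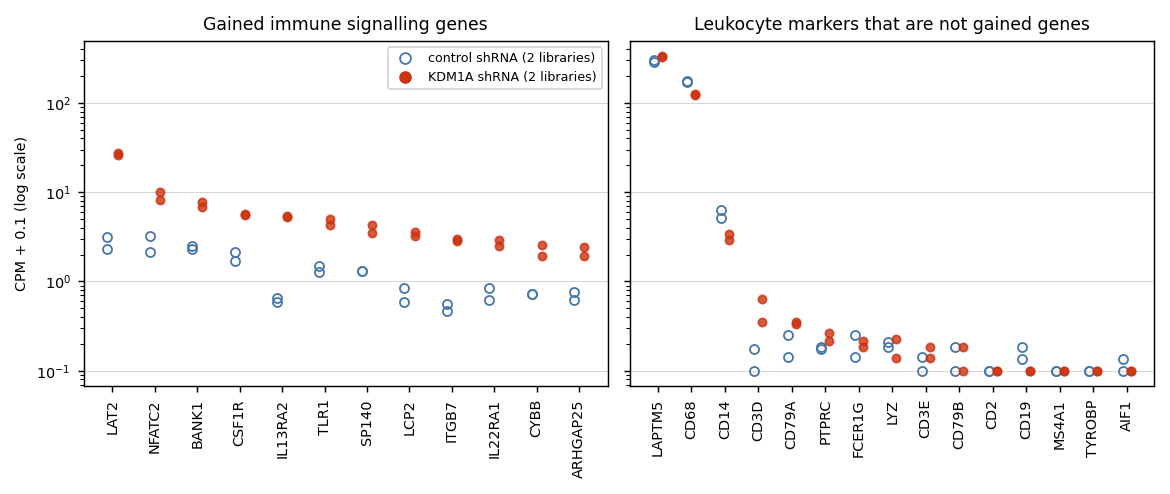
Level in each library, as CPM + 0.1 on a log axis. Shown are members of the immune signalling role (left) and the 15 leukocyte markers that are not members (right). Open circles are control shRNA and filled circles KDM1A shRNA libraries. The members separate by group, as the rule requires, while 12 of the markers, PTPRC among them, stay under 1 CPM in all 4 libraries.

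Related genes outside the set, from lists that hold a member, went both ways. Rises and falls are calls of edgeR at an adjusted p under 0.05. Over all tested genes 27.3% were called higher and 28.8% lower. A list without a member leaned upward: of 43 interferon-stimulated genes tested, 31 were higher and 1 lower. Among the list genes named in this and the next 2 paragraphs, SEs of the log2 change ran from 0.04 (TGM2) to 0.73 (IRF8), and the largest edgeR adjusted p was 0.0012 (SH2D2A). Of 10 other receptor adaptors and lymphoid kinases tested by edgeR, 4 were higher, 4 lower and 2 not called. The kinase SYK fell (log2 -1.46), as did the adaptors SH2D2A (log2 -1.21) and SH3BP2 (log2 -0.37). The count of higher genes was 2 without the first control library, 1 without either KDM1A shRNA library and 1 with DESeq2. Of 7 other myeloid genes listed as raised by KDM1A inhibition, 5 fell and 1 rose. The matrix gene VCAN (log2 -4.98) and the myeloid transcription factors CEBPA (log2 -3.54) and IRF8 (24 and 34 reads against 0 and 1) were among those that fell. The 1 rise was lost without the first control library and with DESeq2.

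Beside CALB2, 11 other genes were tested from a list of EF-hand proteins (which also holds CAMK2N1, an inhibitor of CaM kinase II that has no EF hand), of which 1 rose, 7 fell and 3 were not called (2 rose with a minimum of 1 count in total and 3 rose without the second control library). HPCAL4, a neuronal calcium sensor, fell from 57 and 52 reads to 7 and 12, as did CAMK2N1 and CALU, a calcium-binding protein of the secretory pathway. Beside PPAPDC1A, 22 other lipid phosphatase and phospholipid genes were tested, of which 5 rose and 9 fell. The lipid phosphatase PPAP2B fell (log2 -1.44) and so did the sphingosine 1-phosphate receptor S1PR3 (log2 -1.30), while ENPP4, an ectophosphatase, rose (log2 0.92). Neither list leaned in the direction of its member.

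Of genes of squamous differentiation outside the set, 10 were tested, of which 5 rose and 3 fell (1 fell without the first KDM1A shRNA library). The desmosomal plaque protein EVPL rose (log2 0.84), the transglutaminase TGM2 rose (log2 0.43) and GJB2, the connexin 26 gene, fell (log2 -1.16). Of 37 other immunoglobulin-type adhesion and tetraspanin genes, 10 rose and 15 fell. ICAM1 (log2 -1.16), CADM1 (log2 -3.99) and JAM3 (log2 -4.83), adhesion proteins of leukocyte, neuronal and endothelial contacts, were among those that fell. LUM belongs to a list of fibroblast markers, whose other 6 tested genes split into 3 higher and 3 lower. PDGFRB (log2 1.47) and COL1A1 (log2 0.86) rose and DCN, the proteoglycan decorin, fell (log2 -1.16), and the summed level of the list was 146 and 143 CPM in controls against 110 and 102 CPM after knockdown. Of its 12 genes 7 were under 1 CPM in every library.

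Genes sharing a symbol root with a member also split by family, roots being taken once the members were known. Over all tested genes 27.3% were called higher and 28.8% lower. The families detailed below were picked after their values were seen. Elsewhere all 3 other HSPB genes tested were higher, while of 3 other NFATC genes none was higher and 2 were lower. The largest edgeR adjusted p among the family genes named here was 0.0076 (EPHB3). All 3 other EPHB receptors tested rose, by less than the kinase-dead EPHB6 (ratio 6.26), which the rule had chosen for its fold. EPHB2 went from 61.9 to 110 CPM (log2 0.83), EPHB4 from 81.9 to 124 CPM (log2 0.59) and EPHB3 from 1.03 to 1.99 CPM (log2 0.96). Of 15 other semaphorins, 7 rose, 6 fell and 2 were not called. SEMA3C rose from 106 to 181 CPM (log2 0.77), while SEMA6A fell from 3.36 to 0.263 CPM (log2 -3.67) and SEMA3F from 5.99 to 0.923 CPM (log2 -2.69). Of 6 other Toll-like receptors, TLR3 (log2 1.56) and TLR6 (log2 1.58) rose and 4 fell, among them the abundant TLR2, which went from 306 to 125 CPM (log2 -1.30), and TLR4, which went from 156 to 99.2 CPM (log2 -0.66).

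Marker lists of other cell types moved as follows, and their part in the members' levels was not tested. The 12 endothelial markers summed to 267 and 267 CPM in controls and 239 and 231.1 CPM after knockdown, and 7 of them were under 1 CPM in every library. The 14 neuronal markers summed to 78.9 and 77.6 CPM against 30.8 and 34.5 CPM, with 8 under 1 CPM in every library. The 14 luminal breast markers summed to 1131 and 1153 CPM against 1347 and 1363 CPM. By edgeR 6 luminal markers were higher, 5 lower and 1 not called, with a median log2 change of 0.08. Of endothelial markers 1 was higher and 6 lower, and of neuronal markers 1 was higher, 4 lower and 2 not called. Over all tested genes 27.3% were called higher and 28.8% lower.

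Members were spread over the genome. By GENCODE positions on GRCh37, 85 of 86 could be placed (ODZ3 had no match). Chromosome 7 held 11 of them, 2.11% of its 522 genes at 2 CPM or more after knockdown, beside 0.749% of the 11347 such genes placed on all chromosomes. By share chromosome 10 came next with 6 members (1.35%), and by number chromosome 1 with 9 (0.774%). Chromosomes 13, 15, 21 and 22 held none. In 3 places 2 members were direct neighbours. MPZL2 and MPZL3 lie 1050 bases apart on chromosome 11, XK and CYBB 47887 bases apart on the X chromosome, and PRSS38 and WNT9A 72185 bases apart on chromosome 1. CYBB, the catalytic subunit of the phagocyte oxidase, was at 0.631 and 0.618 CPM in controls and 2.47 and 1.82 CPM after knockdown. LANCL3, on the far side of XK, rose (log2 0.86, edgeR adjusted p 0.043), DYNLT3, on the far side of CYBB, was not called (edgeR adjusted p 0.087), and SYTL5 further along fell (log2 -3.03).

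The genes next to members leaned upward. The placed members had 164 different neighbours outside the set, and 95 of these were tested by edgeR. Of them 43 were higher (45.3%, beside 27.3% of all tested genes) and 23 lower (24.2%, beside 28.8%), with a median log2 change of 0.16 beside -0.00 over all tested genes. Neighbours called higher by 2-fold or more numbered 8 (8.42%, beside 3.07% of all tested genes). Among these 8 was SLC38A4 beside AMIGO2, which met the member rule itself (ratio 3.10) and was dropped by symbol. Some of them share transcribed bases with a member, and these shares carry no test. PDGFRB, which lies 466 bases from CSF1R, was at 9.32 and 9.07 CPM in controls and 26.4 and 24.8 CPM after knockdown. TLR6 overlaps TLR1 on the same strand and was at 9.43 and 10.9 CPM against 30.2 and 30.7 CPM, so reads at the shared exons may belong to either gene.

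**Figure D4:**
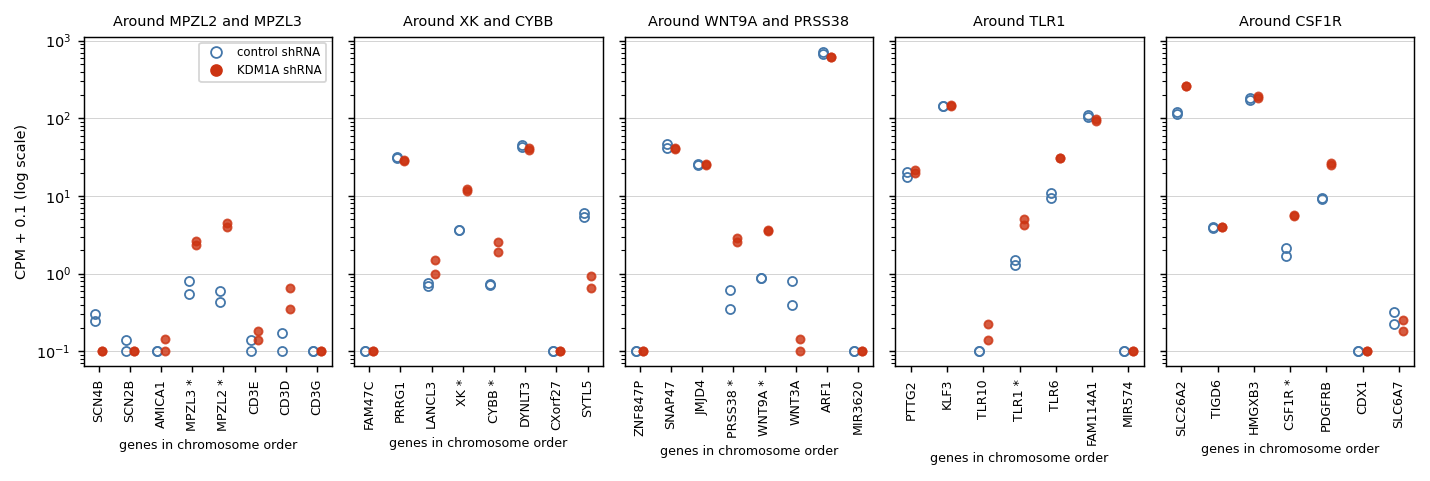
Level in each library, as CPM + 0.1 on a log axis, of consecutive genes in chromosome order around MPZL2 and MPZL3, XK and CYBB, WNT9A and PRSS38, TLR1, and CSF1R; an asterisk marks a member, open circles are control shRNA and filled circles KDM1A shRNA libraries. TLR6 and PDGFRB are higher after knockdown beside TLR1 and CSF1R, while SYTL5 near CYBB and WNT3A beside WNT9A are lower.

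Overlap with genes on the opposite strand touched other members, and the sources used here do not give the strand setting used in counting. RBBP4, which overlaps SYNC, was at 115.6 CPM in controls and 99.8 CPM after knockdown. CHD1L, which overlaps FMO5, was at 62.6 and 71.2 CPM, and ZNF740, which overlaps ITGB7, at 68.0 and 50.4 CPM. SP110, which overlaps SP140, was at 12.7 and 17.7 CPM. None of these 4 partners moved by 3-fold, but reads carried over to a member would depend on level, which a fold does not show. RBBP4 and ZNF740 were lower after knockdown, and CHD1L and SP110 higher. SP140 rose from 1.21 to 3.78 CPM, below the level of SP110 in both groups. Other overlaps also went both ways. SPC25, which overlaps NOSTRIN, went from 16.2 to 21.6 CPM, and PTX3, which overlaps VEPH1, from 53.1 to 20.3 CPM. Whether reads of the opposite strand were counted for members was not tested.

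Over the members as a group, the CG content first shown for CRISP3, TSPAN8, WNT9A and SEMA5A was lower than over other expressed genes. Genes matched to the members in control level were not compared, nor those of the mirror rule. Whether low CG content is particular to gained genes was thus not tested. The median ratio of observed to expected CG was 0.313 over the 65 member promoters, 0.847 over 9361 genes at 2 CPM or more after knockdown and 0.766 over 15487 counted genes. A promoter was called CG-rich with 50% G and C or more and a ratio of 0.6 or more. By that rule 20 member promoters (30.8%) were CG-rich, beside 82.0% of genes at 2 CPM or more and 63.9% of all counted genes. Members with CG-rich promoters had a median fold of 3.46 and those with CG-poor promoters 4.08. Their median control levels also differed, at 2.09 and 1.27 CPM. Because the rule cut on fold and level, these folds cannot be read as an effect of the promoter. Of 9 immune members with a promoter, 1 was CG-rich, and of 8 enzymes 4 were.

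**Figure D5:**
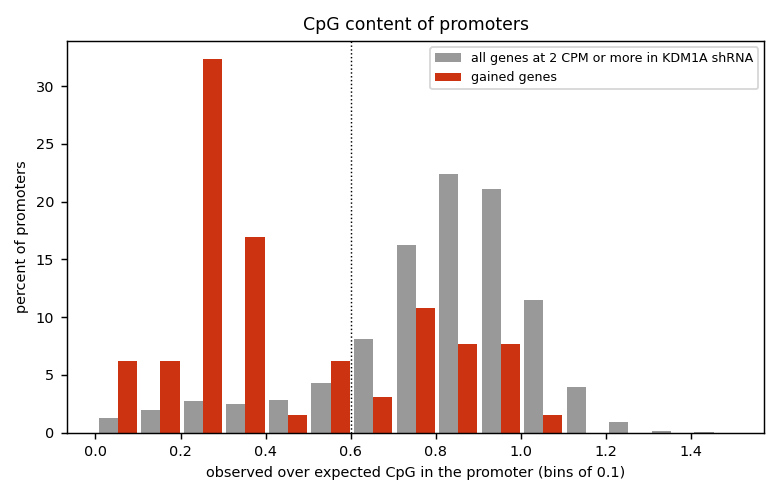
Share of promoters (percent, vertical axis) by ratio of observed to expected CG in bins of 0.1 (horizontal axis), for 65 members and for 9361 genes at 2 CPM or more after knockdown; the dotted line marks 0.6. Most members lie below 0.6, where the median is 0.313, and most other expressed genes above it, with a median of 0.847.

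Short motifs were searched on both strands of the same 300-base windows. TGANTCA, the core bound by AP-1 factors (JUN and FOS proteins), was in 10 member promoters (15.4%), beside 4.33% of genes at 2 CPM or more and 5.74% of all counted genes. Both shares were higher among CG-poor promoters, where the motif was in 9 of 45 member promoters (20%) and in 181 of 1687 promoters of genes at 2 CPM or more (10.7%). The 11 matches are printed 5′ to 3′ on the strand of the gene, the motif in capitals with 11 bases on each side, because AP-1 was the motif with the widest gap between members and all counted genes relative to the latter.
AMIGO2 (GRCh38.p14 chr12:47080165-47080193, minus strand): gttgggcatctTGACTCAaggaccagagt
ANKRD22 (GRCh38.p14 chr10:88851885-88851913, minus strand): cagagcaaataTGACTCAgaaaccggctc
BCHE (GRCh38.p14 chr3:165837522-165837550, minus strand): acttctgtaaaTGAATCActattgcattt
C1orf116 (GRCh38.p14 chr1:207032745-207032773, minus strand): ctaggattggcTGAGTCAgtggcagggtg
CALHM3 (GRCh38.p14 chr10:103479299-103479327, minus strand): gtcacagagggTGACTCActcccccagac
CSF1R (GRCh38.p14 chr5:150113382-150113410, minus strand): ccaggtccaggTGAGTCAtgatcaggccc
GPR115 (GRCh38.p14 chr6:47698446-47698474, plus strand): agacaaacaagTGACTCActttaatggat
GPR115, second match (GRCh38.p14 chr6:47698526-47698554, plus strand): ccatagtggagTGAATCAcagacttgcac
IL22RA1 (GRCh38.p14 chr1:24143346-24143374, minus strand): accacttgggaTGAATCAgccaccggacc
MGAT5B (GRCh38.p14 chr17:76872442-76872470, plus strand): cccagagtatcTGATTCAgtaatttgggg
VILL (GRCh38.p14 chr3:37987923-37987951, plus strand): cctgcccacagTGACTCAcagtccagctg
The match of C1orf116 starts 6 bases before the gene's start, that of CSF1R 34 and that of AMIGO2 223. AMIGO2 alone among these genes has a CG-rich promoter. GAGGAA, a core bound by ETS factors such as PU.1, was in 27 member promoters (41.5%), beside 27.1% and 27.8%, and among CG-poor promoters in 44.4% beside 35.7%. TATAAA was in 12.3% of member promoters, beside 5.15% and 9.48%, and among CG-poor promoters in 15.6% beside 12.5%. AAATCA, the core of GFI1 sites, was in 10.8%, beside 6.45% and 9.30%, but among CG-poor promoters the shares were 15.6% and 14.9%. CAGGTG, the E-box bound by SNAIL and ZEB factors, was in 16.9%, beside 17.6% and 19.9%, and among CG-poor promoters in 22.2% beside 20.3%. A match is a run of letters and not a bound site, and no motif searched contains another.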

How the data were processed

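The authors deposited unnormalized counts of reads for each gene symbol, with a file for each library. The submitters' processing notes list TopHat2 2.0.8b, CASAVA 1.8.2, HTSeq and the hg19 build. The 5 HTSeq summary lines were left out, and genes held 59.0% to 61.1% of each file's total. CPM is a gene's count over the sum of gene counts. The members and gene lists were chosen with earlier results of these data known. All genes were tested in edgeR 4.0.16 (R 4.3.3) with TMM, filterByExpr (minimum count 10, minimum total 15), the quasi-likelihood F-test and Benjamini-Hochberg adjustment over 14012 genes. Tested on simulated data for this comparison over 14012 genes, it recovered 78% of 1.5-fold and 100% of 4-fold rises. Of simulated falls it recovered 86% at 2-fold and 88% at 8-fold, and 8 of 184 calls were false. Each fold was given to 50 genes, far fewer in all than edgeR called in the data. No 2-fold or 8-fold rise was simulated, so recovery of rises and falls cannot be compared. SEs of log2 changes are approximations, formed as the absolute log2 change over the square root of the edgeR F statistic. Named genes were KDM1A, CDKN2A, the most abundant and most changed members in all and by role, list members, neighbouring members, genes beside each threshold and, per list with a member, the 3 other genes of smallest p. Family and neighbour genes, and further members, were named after their values were seen. Replicates differed beyond sampling noise (chi-square per degree of freedom 3.97 in controls, 1.603 after knockdown). Alternatives were other scalings, filters and thresholds, DESeq2 1.42.0, limma-voom (limma 3.58.1), a replicate block, thinning and each library left out. Positions are from GENCODE on GRCh37 and promoters from RefSeq on GRCh38.p14. Some members that the naming rule takes are not reported here.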

Additional observations from a re-analysis of the deposited data

How the results depend on the processing

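The 86 genes of the rule became 243 at 2-fold, 47 at 4-fold, 52 at a minimum of 5 CPM and 112 at 1 CPM, and 111 with no symbol dropped. Upper-quartile scaling gave 82, TMM and RLE 86 each, thinning 86, and leaving out a library 86 to 90. With each library left out in turn 69 members met the rule every time, and 81 did under each scaling and thinned. Every member kept a ratio of 2 or more under each alternative tried for it, the lowest being 2.46 for SPOCK3 without 1 library (CRISP3 gave no ratio without the first control library). The median ratio of 4.14 ran from 4.0 to 4.39 with a library left out, 4.39 being without the first control library. PRSS38 had a ratio of 6.78, and 10.5 without that library.

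Over all genes, 3828 were higher and 4033 lower. Leaving out a library gave 2832 to 4041 and 3146 to 4168, and DESeq2 2907 and 3044. Deviations of same-numbered libraries from their group means correlated at 0.0152. Whether the replicate numbers pair the libraries is not stated, and that value cannot settle it. With the replicate block 3978 were higher and 4164 lower. Neighbours of members called higher numbered 35 to 44, beside 43, with a library left out, and 35 with DESeq2. All alternatives for the neighbour counts were added once the data were known. A motif's share among all promoters depends on the comparison set, and both sets are given with each share. Depth limits the folds of members with few control reads, CRISP3, TSPAN8 and SPANXC among them.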
